A study of Mus musculus with 8 samples.

Results

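Collagen chain genes were followed in the lung myofibroblasts of mice at postnatal day 7. Every gene whose symbol has the form Col, digits, a, digits was taken, which gave 44 genes of the 43432 identifiers in the deposited table. They were grouped by the kind of structure their protein chains build. There were 11 fibrillar chains, 9 fibril-associated collagens with interrupted triple helices (FACIT), 9 network-forming chains and 6 chains of beaded filaments. A further 2 were multiplexins and 4 were transmembrane collagens. Col7a1, Col26a1 and Col28a1 belong to none of these classes. RNA sequencing was done on 8 libraries of lung myofibroblasts, all on a C57BL/6 background. Wild type was the label of 4 libraries, called control 1 to 4. The other 4 were labelled Fra-2 transgenic, with constitutive expression of Fra-2 (Fra-2 1 to Fra-2 4). Fra-2, encoded by Fosl2, is a transcription factor of the AP-1 family. The promoter that drives the transgene, the way the cells were isolated and the number of animals behind each library were not stated in the material used here. Each group held libraries of both sexes and so came from more than 1 animal, but whether every library was a separate animal was not stated. The p-values describe the spread between these libraries.

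Collagens are trimers in which chains wind around each other in a triple helix built on a regularly repeated glycine. Fibrillar chains are cut at both ends outside the cell and pack into the fibrils that carry tension. FACIT collagens sit on the surface of those fibrils, network chains build sheets such as that of the basement membrane, and collagen VI makes beaded microfilaments around cells. In the lung of a young mouse, myofibroblasts lay down elastin and collagen at the tips of the walls that divide the air spaces.

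The libraries held 29926239 to 41335957 counts. Levels are given as counts per 1000000 counts of the library (CPM) after scaling of the library sizes by TMM, and means are given ± SD over the 4 libraries of a group. Fosl2 itself measured 120 ± 14.96 CPM in the controls and 132 ± 25.7 CPM in the Fra-2-labelled group. The log2 fold change, 0.14 with an SE of 0.136, did not pass in edgeR (adjusted p = 0.888), and an exact two-sided permutation test gave p = 0.457. Whether reads of the transgene would be counted as Fosl2 is not known, so this value does not check the label, and the second group is called by its label throughout. Of 10 lung myofibroblast markers all were tested, and their summed level was 21990 to 24758 CPM in the controls and 22908 to 25857 CPM in the Fra-2-labelled libraries. Stc1 among them passed upwards (470 ± 43.3 and 693 ± 101 CPM, edgeR adjusted p = 0.0302), and the other 9 did not pass. Markers of other cells summed to less. The lists hold different genes of different lengths, so these sums give no share of a cell type. Ranges in control and Fra-2-labelled libraries were 56.6 to 129 and 106 to 203 CPM for 11 epithelial genes, 115 to 150 and 147 to 162 CPM for 9 endothelial genes, and 76.7 to 110 and 88.8 to 118 CPM for 7 immune genes. They were 2.48 to 8.002 and 5.32 to 12.5 CPM for 5 mesothelial genes, 8.44 to 16.8 and 10.02 to 18.2 CPM for 5 Schwann cell genes, and 604 to 804 and 768 to 798 CPM for 7 pericyte genes. The 8 genes of matrix and lipid-type alveolar fibroblasts had sums that did not overlap between groups (2607 to 4298 CPM against 4475 to 4940 CPM). Most of that sum was Mfap4 (3071 and 4189 CPM on average). Only Npnt, Limch1 and Mfap4 of the 8 did not overlap, against 5.76% of all tested genes, and none of the 8 passed in edgeR. Non-overlap was not particular to this list. It was also found for 3 of the 8 adventitial fibroblast genes. The myofibroblast, chondrocyte, epithelial, endothelial, mesothelial and pericyte lists each held 1 such gene. The sums of the 8 adventitial fibroblast genes overlapped (862 to 1144 CPM against 1045 to 1407 CPM). Dpt and Serpinf1 among them passed in edgeR upwards, where 0.72% of all tested genes did. The part of these cells in the collagen values below was not tested, and in such bulk samples more cells of a type and more RNA per cell cannot be told apart.

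The collagen genes together took 3.10% to 3.22% of all counts in the control libraries and 3.09% to 3.62% in the Fra-2-labelled libraries. The 3 chains of the common fibrillar collagens I and III led the family. Col1a1, the major chain of collagen I, measured 5190, 6847, 6060 and 6127 CPM in control 1 to 4. It measured 6604, 5895, 5777 and 5134 CPM in Fra-2 1 to 4. Col3a1, which forms collagen III, measured 7194, 6259, 6671 and 6180 CPM in the controls and 7019, 7310, 7247 and 6851 CPM in the Fra-2-labelled libraries. For both genes the groups overlapped.

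Levels of different genes can be set side by side only per length of transcript, given here as CPM per kb. Over the length of all merged exons, the control means were 923 ± 103 for Col1a1, 670 ± 47.3 for Col3a1 and 501 ± 27.4 for Col1a2. Over the longest annotated transcript they were 1021 ± 114, 1182 ± 83.5 and 1164 ± 63.6, so the order among these 3 depends on the length used. Either way the 3 genes ranked among the 29 highest of 15334 tested genes with a length. By merged exons the next chains were Col6a1 (217 ± 19.3), Col4a2 (195 ± 17.1), Col5a1 (186 ± 8.39), Col6a3 (181 ± 16.9), Col6a2 (178 ± 22.4) and Col4a1 (173 ± 6.77). Within these 6, neighbours in the order are not separated beyond their spread. Then came Col12a1 (127 ± 12.9), Col14a1 (92.2 ± 8.10) and Col5a2 (51.9 ± 3.62).

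**Figure D1:**
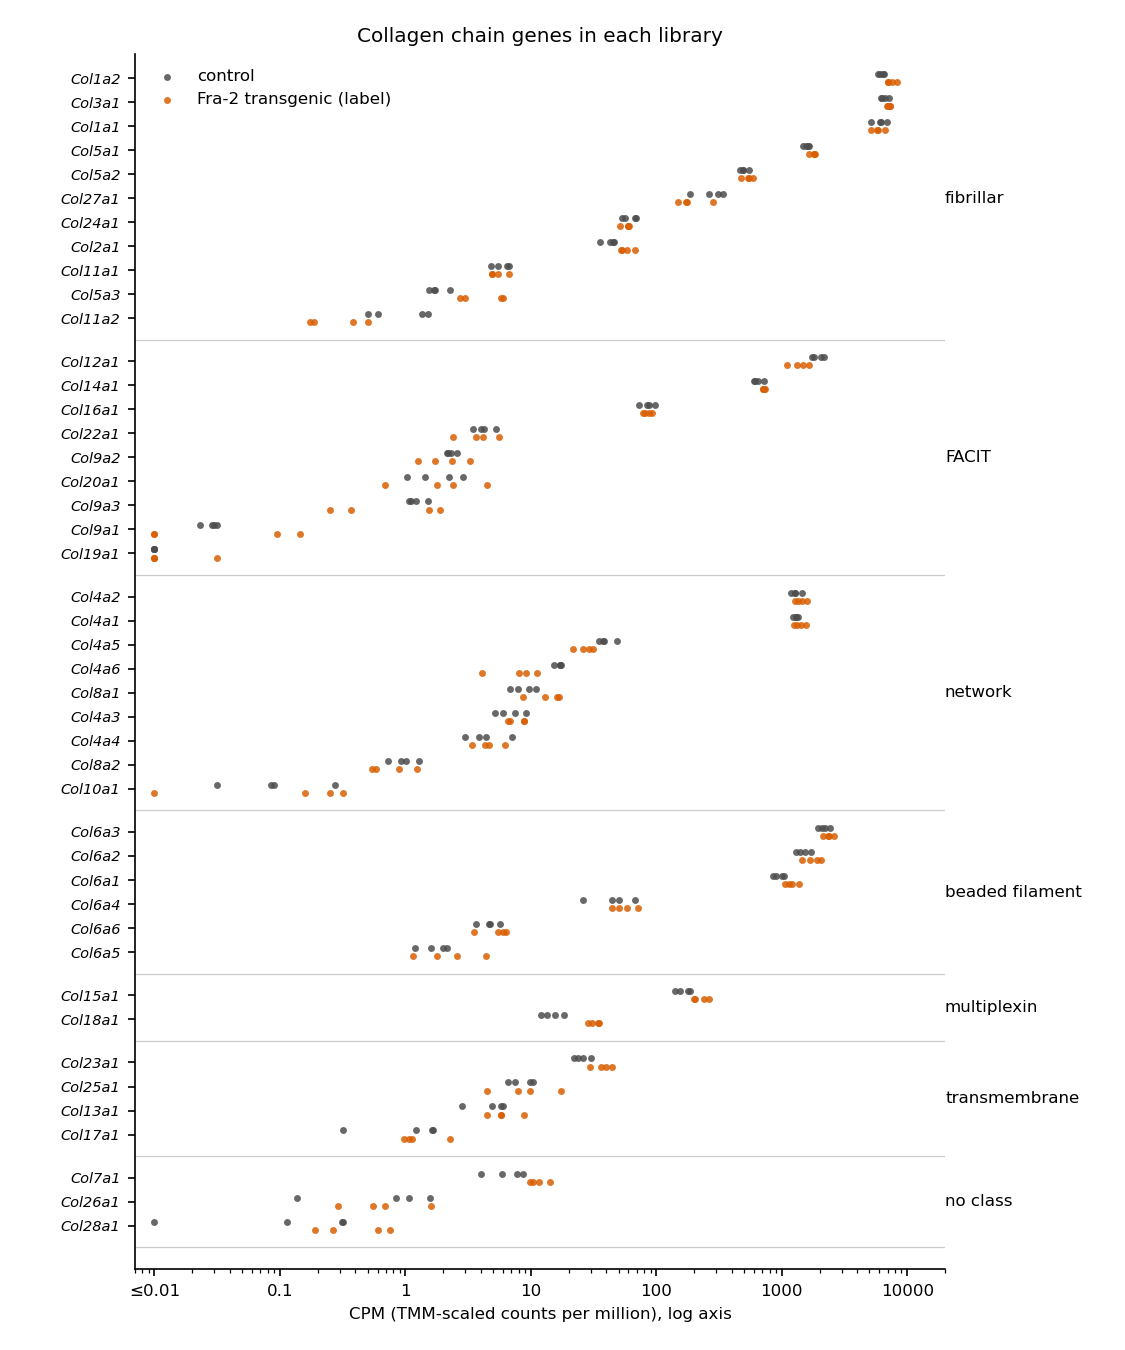
Level of all 44 collagen chain genes in each library as TMM-scaled CPM on a log axis, grouped by class and ordered by mean level, with 1 point per library (grey for control, orange for Fra-2-labelled). Values at or under 0.01 CPM, which include libraries without a read, are drawn at the left edge, and 10 of the tested genes averaged over 1000 CPM while 4 averaged under 1 CPM.

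At the bottom of the family, 3 genes had too few counts to be tested. Col9a1, a chain of the cartilage collagen IX, had 12 counts over the 8 libraries. Col10a1, made by hypertrophic chondrocytes, had 43, and Col19a1, a FACIT collagen, had a single count. In 7 libraries Col19a1 had no count, where 3 counts, the limit that a count of 0 allows, would be 0.0726 to 0.10025 CPM. This floor covers counting error only. The other 41 genes were tested, and 37 of them lay over the filter level in all 8 libraries. Those that did not were Col9a3, Col11a2, Col26a1 and Col28a1.

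Fibrillar chains held most of the collagen level per length in both groups. Their share of the summed CPM per kb was 65.8% ± 0.744 in the controls and 64.9% ± 0.4997 in the Fra-2-labelled libraries. Beaded filament chains came next with 16.2% ± 0.831 and 17.9% ± 0.760. Network chains held 10.5% ± 0.333 and 10.6% ± 0.465. The FACIT share was 6.52% ± 0.534 in the controls and 5.41% ± 0.637 in the Fra-2-labelled libraries, and these groups overlapped. The multiplexin share was 0.783% ± 0.0794 and 1.04% ± 0.117. Its groups did not overlap, with 0.700% to 0.866% in the controls and 0.945% to 1.19% in the Fra-2-labelled libraries. Most of this share was Col15a1, at 26.0 CPM per kb in the controls and 35.7 in the Fra-2-labelled group. Col18a1, the other multiplexin, stood at 2.12 and 4.58 CPM per kb. The transmembrane share was 0.177% ± 0.0254 and 0.229% ± 0.0322, and these overlapped. Over the longest transcript the fibrillar share was larger, at 71.2% and 70.8%, and the network share smaller, at 7.87% and 7.79%. These shares were not tested, since they are sums over genes chosen with results of these data known.

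**Figure D2:**
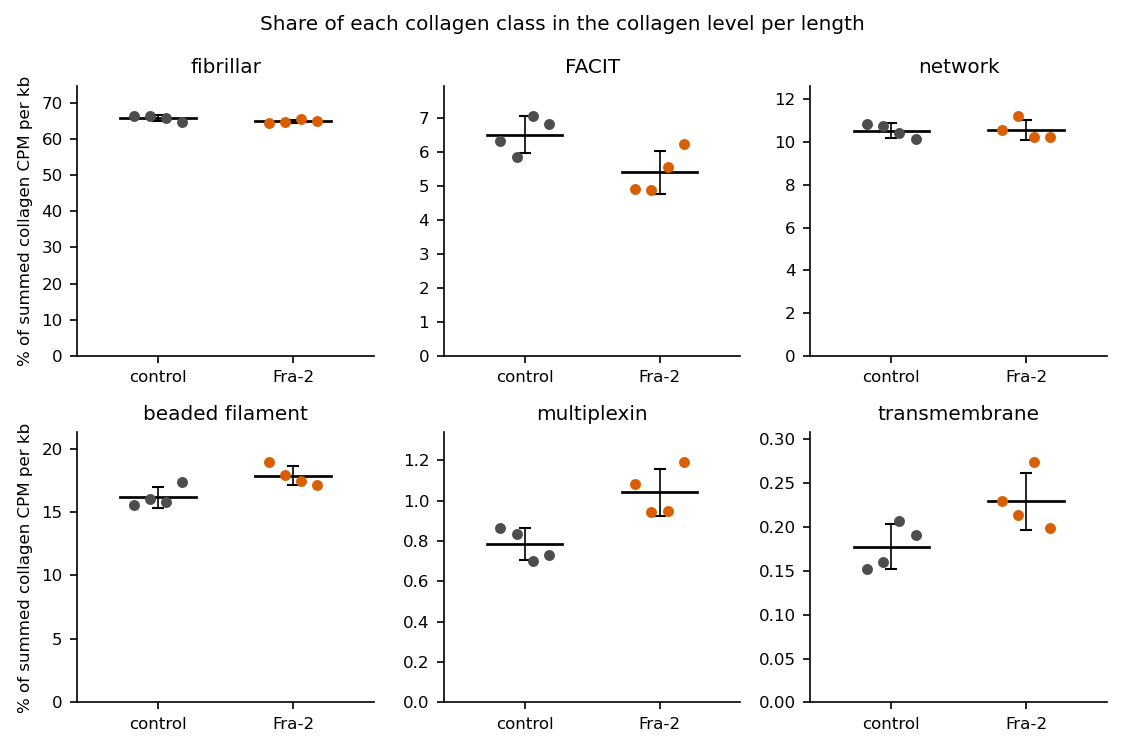
Share of each of 6 collagen classes in the summed collagen level per length of merged exons, in percent, with 1 point per library, a line at the group mean and bars of 1 SD (n = 4). Fibrillar shares sit between 64.3% and 66.4% in all 8 libraries, and for the multiplexins the lowest Fra-2-labelled library (0.945%) is above the highest control (0.866%). Most of the multiplexin share is Col15a1.

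Between the groups, 1 collagen gene rose and 1 fell. Col18a1 was higher and Col4a6 was lower in the Fra-2-labelled libraries (edgeR quasi-likelihood test, adjusted p under 0.05 over all 15422 tested genes), and the other 39 did not pass. Over all tested genes 0.72% passed upwards and 0.298% downwards, 1.02% in all. DESeq2 called 6 collagen genes higher (Col2a1, Col5a3, Col7a1, Col15a1, Col18a1 and Col23a1) and 3 lower (Col4a5, Col4a6 and Col12a1), where it called 1.76% of all genes higher and 0.629% lower, 2.39% in all. In 12 of the 41 tested collagen genes (29.3%) all 4 libraries of one group lay above all 4 of the other, 8 of them higher and 4 lower in the Fra-2-labelled libraries. Over all tested genes the groups did not overlap in 5.76% (3.35% higher and 2.42% lower). An unadjusted edgeR p under 0.05 was found for 14 of the 41 (34.1%), and for 8.71% of all genes. The median log2 fold change of the 41 was 0.15, against -0.0123 for all genes, and 27 of them (65.9%) were positive against 47.8% of all genes. Chains of a trimer are made in the same cells, so these counts are not of independent genes.

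**Figure D3:**
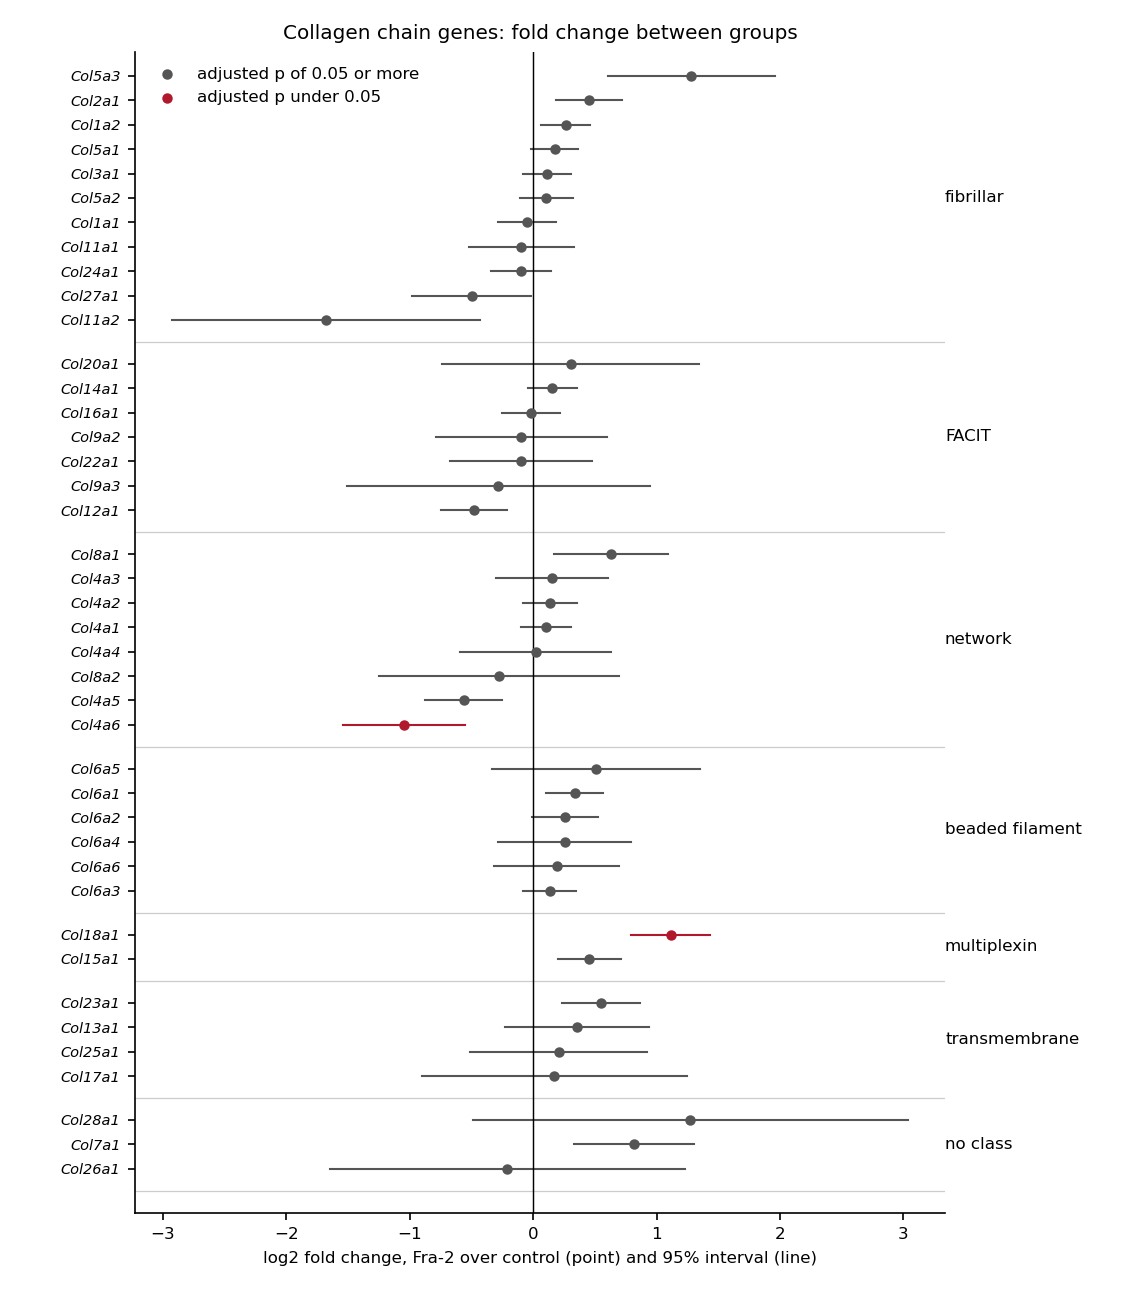
log2 fold change of Fra-2-labelled over control libraries (points) with its 95% interval (lines) for the 41 tested collagen genes, grouped by class and sorted within it. Red marks an adjusted p under 0.05 in edgeR, which Col18a1 (1.12) and Col4a6 (-1.05) reached, and the 6 beaded filament chains and 4 transmembrane chains all lie to the right of 0.

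The riser, Col18a1, encodes collagen XVIII, a basement membrane proteoglycan whose C-terminal fragment is endostatin. It measured 12.025, 13.5, 18.3 and 15.6 CPM in control 1 to 4. It measured 28.7, 31.0, 34.2 and 34.955 CPM in Fra-2 1 to 4. The lowest Fra-2-labelled library was thus above the highest control, from 474 to 579 counts per control library and 972 to 1319 per Fra-2-labelled library. The fold change was 2.17 with a 95% interval of 1.74 to 2.70 (edgeR adjusted p = 0.00172). Leaving out any one library kept the call, with an edgeR adjusted p of 0.00297 to 0.0109. Female libraries, judged by Xist and 4 Y-linked genes, averaged 15.9 CPM in the controls and 31.4 CPM in the Fra-2-labelled group, and male libraries 13.8 and 33.0 CPM. Each group held 2 libraries of each sex. Col18a1 lies on chromosome 10, 77052178 to 77166548 on the minus strand of GRCm38 (ENSMUSG00000001435), and its counts do not tell its short and long transcripts apart.

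The other multiplexin, Col15a1, encodes collagen XV, which links basement membranes to fibrils and also carries an endostatin-like fragment. It measured 179, 186, 142 and 154 CPM in the controls and 261, 205, 199 and 240 CPM in the Fra-2-labelled libraries. These groups did not overlap, but the gene did not pass in edgeR, with a fold change of 1.37 (95% interval 1.15 to 1.64, adjusted p = 0.110).

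The gene that fell, Col4a6, encodes the alpha-6 chain of collagen IV, which in smooth muscle and some epithelia assembles with the alpha-5 chain. It measured 17.03, 16.99, 17.4 and 15.4 CPM in control 1 to 4. In Fra-2 1 to 4 it measured 11.1, 4.11, 9.14 and 7.98 CPM. The 4 controls lay close together, and all Fra-2-labelled libraries were below them, with Fra-2 2 the lowest. The fold change was 0.484 with a 95% interval of 0.343 to 0.683 (edgeR adjusted p = 0.0489). The call was lost without control 1, 2, 3 or 4 (edgeR adjusted p = 0.103, 0.152, 0.147 and 0.0658) and without Fra-2 3 or 4 (0.116 and 0.119). It was kept without Fra-2 1 (0.0495) and without Fra-2 2 (0.0210).

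Col4a5, the partner of Col4a6, lay on the same side. It measured 37.9, 34.8, 49.1 and 38.1 CPM in the controls and 28.8, 21.9, 31.4 and 26.0 CPM in the Fra-2-labelled libraries. Here too the groups did not overlap, but the test did not pass, with a fold change of 0.676 (95% interval 0.545 to 0.840, edgeR adjusted p = 0.106). Both genes are X-linked. In the controls, female libraries averaged 41.9 CPM of Col4a5 and 17.2 CPM of Col4a6, and male libraries 38.0 and 16.2 CPM. In the Fra-2-labelled group the female means were 30.1 and 10.1 CPM and the male means 23.9 and 6.04 CPM. With sex as a term of the fit, the edgeR adjusted p was 0.0394 for Col4a6 and 0.0942 for Col4a5.

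The starts of Col4a6 and Col4a5 lie head to head on chromosome X, 1309 bases apart, and the sequences before these starts and before that of Col18a1 are printed here because these are the called genes and the head-to-head partner of one of them. They are from the RefSeq promoter table (GRCm38.p6), 5′ to 3′ on the strand of the gene. Bases that overlap an annotated exon were left out. Capitals mark GC boxes, here written CCGCCC, the reverse strand of GGGCGG. They cover chrX:141474077-141474326 (minus strand) for Col4a6, chrX:141475169-141475384 (plus strand) for Col4a5 and chr10:77166549-77166780 (minus strand) for Col18a1. A second start of Col18a1, with the window chr10:77113706-77113955 (minus strand), has no GC box before it and is not printed. The counts do not tell which start was used.
Col4a6: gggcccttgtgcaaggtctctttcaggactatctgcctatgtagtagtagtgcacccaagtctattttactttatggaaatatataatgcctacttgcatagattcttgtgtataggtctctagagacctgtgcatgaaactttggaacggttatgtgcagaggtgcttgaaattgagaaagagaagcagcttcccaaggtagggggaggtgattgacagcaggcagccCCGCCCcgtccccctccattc
Col4a5: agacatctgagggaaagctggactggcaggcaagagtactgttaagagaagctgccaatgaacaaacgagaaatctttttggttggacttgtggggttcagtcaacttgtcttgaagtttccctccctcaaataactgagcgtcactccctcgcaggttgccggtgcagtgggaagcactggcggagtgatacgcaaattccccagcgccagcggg
Col18a1: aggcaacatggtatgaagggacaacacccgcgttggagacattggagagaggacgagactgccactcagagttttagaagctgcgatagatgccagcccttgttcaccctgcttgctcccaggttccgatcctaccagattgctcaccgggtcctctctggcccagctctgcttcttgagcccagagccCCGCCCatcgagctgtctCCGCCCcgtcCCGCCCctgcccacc

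Neither the AP-1 motif TGANTCA nor the cyclic AMP response element TGACGTCA occurs on either strand of these 3 stretches, and 3 GC boxes stand in that of Col18a1 and 1 in that of Col4a6. Col4a5 also has a GC box, with its first base 30 bases before the RefSeq start. It lies in the 34 bases left out there as exon. Over the 250 bases before the start, 35 of the 44 collagen genes had 38 promoter windows. The AP-1 motif occurred in 1 of the 38 windows (2.63%), against 6.75% of the 32851 windows of the whole table. TGACGTCA occurred in 0 of the 38 and in 1.55% of all windows. A GC box (GGGCGG, either strand) occurred in 22 of the 38 (57.9%) against 32.7% of all windows, and the TATA box TATAAA in 5 (13.2%) against 12.4%. The single AP-1 match lies before Col6a1, a chain whose groups did not overlap, with its first base 90 bases before the RefSeq start at chr10:76726118-76726144 (minus strand). This stretch lies inside the gene as GENCODE annotates it, which reaches to 76726168. The match is shown in capitals.
Col6a1: gctgatgctgTGACTCActcagctttg
A match of letters is no binding site, and these windows leave out enhancers.

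Other network chains did not pass. Col4a1 and Col4a2, the basement membrane chains made by nearly all cells, measured 1292 ± 50.5 and 1292 ± 113 CPM in the controls and 1389 ± 131 and 1422 ± 141 CPM in the Fra-2-labelled libraries. The 95% intervals of their fold changes, 0.933 to 1.24 and 0.945 to 1.28, both include 1. In control 1 to 4 Col4a1 measured 1292, 1293, 1353 and 1230 CPM, and in Fra-2 1 to 4 it measured 1423, 1555, 1326 and 1253 CPM. Col4a2 measured 1263, 1452, 1184 and 1270 CPM and 1600, 1461, 1354 and 1274 CPM in the same order. Col4a3 and Col4a4, which with Col4a5 build the network of the air-blood barrier and the kidney filter, were low at 6.96 ± 1.75 and 4.59 ± 1.79 CPM in the controls, with fold changes of 1.11 and 1.01. Col8a1, a chain of the hexagonal collagen VIII of vessel walls, measured 6.88, 10.9, 9.67 and 7.88 CPM in the controls and 12.9, 8.73, 16.8 and 16.2 CPM in the Fra-2-labelled libraries. Fra-2 2 lay within the control range, and the fold change of 1.55 (95% interval 1.12 to 2.13) did not pass (edgeR adjusted p = 0.304). Its partner Col8a2 measured 0.918, 1.28, 1.01 and 0.722 CPM in the controls and 1.24, 0.541, 0.882 and 0.583 CPM in the Fra-2-labelled libraries, which overlapped.

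None of the 11 fibrillar genes passed in edgeR, where 1.02% of all genes did. An unadjusted edgeR p under 0.05 was found for 5 of them (45.5%), against 8.71% of all genes. DESeq2 called 2 higher and 0 lower, where it called 1.76% and 0.629% of all genes. Col1a2, the second chain of collagen I, measured 6047, 6570, 5836 and 6439 CPM in the controls and 8286, 7073, 7530 and 6982 CPM in the Fra-2-labelled libraries. Its groups did not overlap, with a fold change of 1.20 (95% interval 1.04 to 1.38, edgeR adjusted p = 0.340). The interval of Col1a1, 0.822 to 1.14, and that of Col3a1, 0.946 to 1.23, both include 1.

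Collagen V, which starts fibrils and limits their width, is made of Col5a1 and Col5a2, with Col5a3 as a rarer chain. Col5a1 measured 1485, 1617, 1646 and 1557 CPM in the controls and 1822, 1835, 1655 and 1806 CPM in the Fra-2-labelled libraries. The groups were separated only by the 1646 CPM of control 3 and the 1655 CPM of Fra-2 3, and the fold change was 1.13 (95% interval 0.991 to 1.29, edgeR adjusted p = 0.635). Col5a2 measured 546, 464, 493 and 487 CPM in the controls and 537, 470, 544 and 593 CPM in the Fra-2-labelled libraries, which overlapped. Col5a3 had the largest positive log2 fold change of the 41 tested genes at 1.28. It measured 1.70, 2.25, 1.55 and 1.71 CPM in the controls and 6.00, 5.83, 2.99 and 2.73 CPM in the Fra-2-labelled libraries. Fra-2 1 and Fra-2 2 stood well above Fra-2 3 and Fra-2 4, and the test did not pass (fold change 2.43, 95% interval 1.52 to 3.88, edgeR adjusted p = 0.0871).

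The cartilage chains were uneven. Col2a1, the main collagen of cartilage, measured 35.5, 42.9, 45.4 and 46.0 CPM in the controls and 58.2, 52.3, 68.2 and 53.4 CPM in the Fra-2-labelled libraries. The groups did not overlap, and the fold change of 1.37 (95% interval 1.14 to 1.64) did not pass in edgeR (adjusted p = 0.134). Col11a1, which joins Col2a1 in cartilage fibrils, stood at 5.86 ± 0.861 and 5.49 ± 0.818 CPM. Col11a2 was under 2 CPM in every library, with 1.35, 1.51, 0.505 and 0.602 CPM in the controls and 0.173, 0.382, 0.504 and 0.186 CPM in the Fra-2-labelled libraries. These came from 16 to 59 counts and from 6 to 16 counts per library, and control 3 and Fra-2 3 had 16 counts each. The gene is counted as non-overlapping on that margin alone (edgeR adjusted p = 0.321). Of 10 chondrocyte markers 4 could be tested and none passed in edgeR. Matn1 had no count in any library. Acan, the cartilage proteoglycan, measured 0.0229 to 1.53 CPM in the controls and 3.22 to 5.14 CPM in the Fra-2-labelled libraries (edgeR adjusted p = 0.173), while Sox9, the most abundant of the list, measured 26.6 ± 5.08 and 21.1 ± 4.50 CPM, with overlap, and the median log2 fold change of the 4 was 0.04. Their part in the Col2a1 values was not tested.

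Col24a1 and Col27a1, 2 fibrillar chains with short or interrupted helices, did not lie higher in the Fra-2-labelled libraries. Col24a1 measured 61.7 ± 7.98 and 57.6 ± 4.46 CPM. Col27a1 measured 338, 311, 262 and 184 CPM in the controls and 176, 282, 172 and 148 CPM in the Fra-2-labelled libraries. Control 4 lay among the Fra-2-labelled libraries and Fra-2 2 among the controls. The fold change was 0.709 (95% interval 0.508 to 0.990, edgeR adjusted p = 0.549).

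Of the FACIT collagens, the most abundant was the one that stood lowest in the Fra-2-labelled libraries. Col12a1, a long collagen of tendon and of tissue under strain, measured 1731, 1821, 2037 and 2162 CPM in the controls. It measured 1326, 1097, 1488 and 1643 CPM in the Fra-2-labelled libraries, all below the lowest control. The fold change was 0.716 (95% interval 0.595 to 0.863), and the gene did not pass in edgeR (adjusted p = 0.109). DESeq2 gave an adjusted p of 0.0199, and over all alternatives tried the adjusted p ran from 0.0199 to 0.328. Col14a1, a close relative of Col12a1, measured 615, 599, 727 and 646 CPM in the controls and 727, 711, 715 and 730 CPM in the Fra-2-labelled libraries, which lay within 19.7 CPM of each other (edgeR adjusted p = 0.722). Col16a1 measured 86.0 ± 10.4 and 84.96 ± 6.32 CPM. The other 4 tested FACIT genes, Col9a2, Col9a3, Col20a1 and Col22a1, were under 6 CPM in every library. None of the 7 passed in edgeR, and 1 (14.3%) had an unadjusted edgeR p under 0.05, against 8.71% of all genes. DESeq2 called 0 higher and 1 lower, where it called 1.76% and 0.629% of all genes.

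The 6 beaded filament genes all had positive log2 fold changes, from 0.13 to 0.51, and none passed in edgeR. Only Col6a1 of the 6 (16.7%) had an unadjusted edgeR p under 0.05, against 8.71% of all genes. DESeq2 called 0 in either direction, where it called 2.39% of all genes. Col6a1, an obligate chain of collagen VI, measured 858, 998, 901 and 1041 CPM in the controls and 1385, 1216, 1147 and 1053 CPM in the Fra-2-labelled libraries. Control 4 and Fra-2 4 were only just apart, and the fold change was 1.26 (95% interval 1.08 to 1.48, edgeR adjusted p = 0.241). Col6a2, the other short chain, measured 1290, 1724, 1394 and 1522 CPM in the controls and 2069, 1920, 1665 and 1445 CPM in the Fra-2-labelled libraries, and these overlapped. Col6a3, the long chain that carries endotrophin, measured 2093, 1934, 2205 and 2414 CPM and 2622, 2139, 2356 and 2367 CPM. In all 3 genes Fra-2 1 was the highest of the 8 libraries. The alternative long chains were far lower, with Col6a4 at 46.9 ± 17.2 and 56.1 ± 11.4 CPM, Col6a6 at 4.69 ± 0.845 and 5.35 ± 1.26 CPM and Col6a5 at 1.73 ± 0.421 and 2.47 ± 1.39 CPM.

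The 4 transmembrane genes also had positive log2 fold changes, from 0.17 to 0.55. None passed in edgeR, and 1 (25%) had an unadjusted edgeR p under 0.05, against 8.71% of all genes. DESeq2 called 1 higher and 0 lower, where it called 1.76% and 0.629% of all genes. Col23a1, the most abundant of them, measured 22.1, 23.9, 30.2 and 26.1 CPM in the controls and 44.2, 36.1, 40.0 and 29.4 CPM in the Fra-2-labelled libraries. The groups overlapped through Fra-2 4 and control 3 alone (fold change 1.47, 95% interval 1.18 to 1.83, edgeR adjusted p = 0.125). Col13a1, which marks a type of lung fibroblast and is found at cell contacts, measured 2.82, 4.93, 5.75 and 6.05 CPM in the controls and 4.47, 5.83, 8.89 and 5.80 CPM in the Fra-2-labelled libraries. Col25a1, found in neurons and developing muscle, measured 8.63 ± 1.86 and 9.95 ± 5.51 CPM, with a span from 4.49 CPM in Fra-2 2 to 17.5 CPM in Fra-2 3. Col17a1, a hemidesmosome collagen of basal epithelial cells, was at 1.20 ± 0.624 and 1.36 ± 0.604 CPM.

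Of the 3 genes outside the classes none passed in edgeR. An unadjusted edgeR p under 0.05 was found for 1 (33.3%), against 8.71% of all genes. DESeq2 called 1 higher and 0 lower, where it called 1.76% and 0.629% of all genes. Col7a1, which forms the anchoring fibrils of skin, measured 3.99, 5.90, 8.65 and 7.73 CPM in the controls and 9.83, 14.3, 11.7 and 10.5 CPM in the Fra-2-labelled libraries. The groups did not overlap (fold change 1.76, 95% interval 1.26 to 2.47, edgeR adjusted p = 0.147). Col26a1 and Col28a1 were under 2 CPM in every library, and Col28a1 had no count in control 4.

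**Figure D4:**
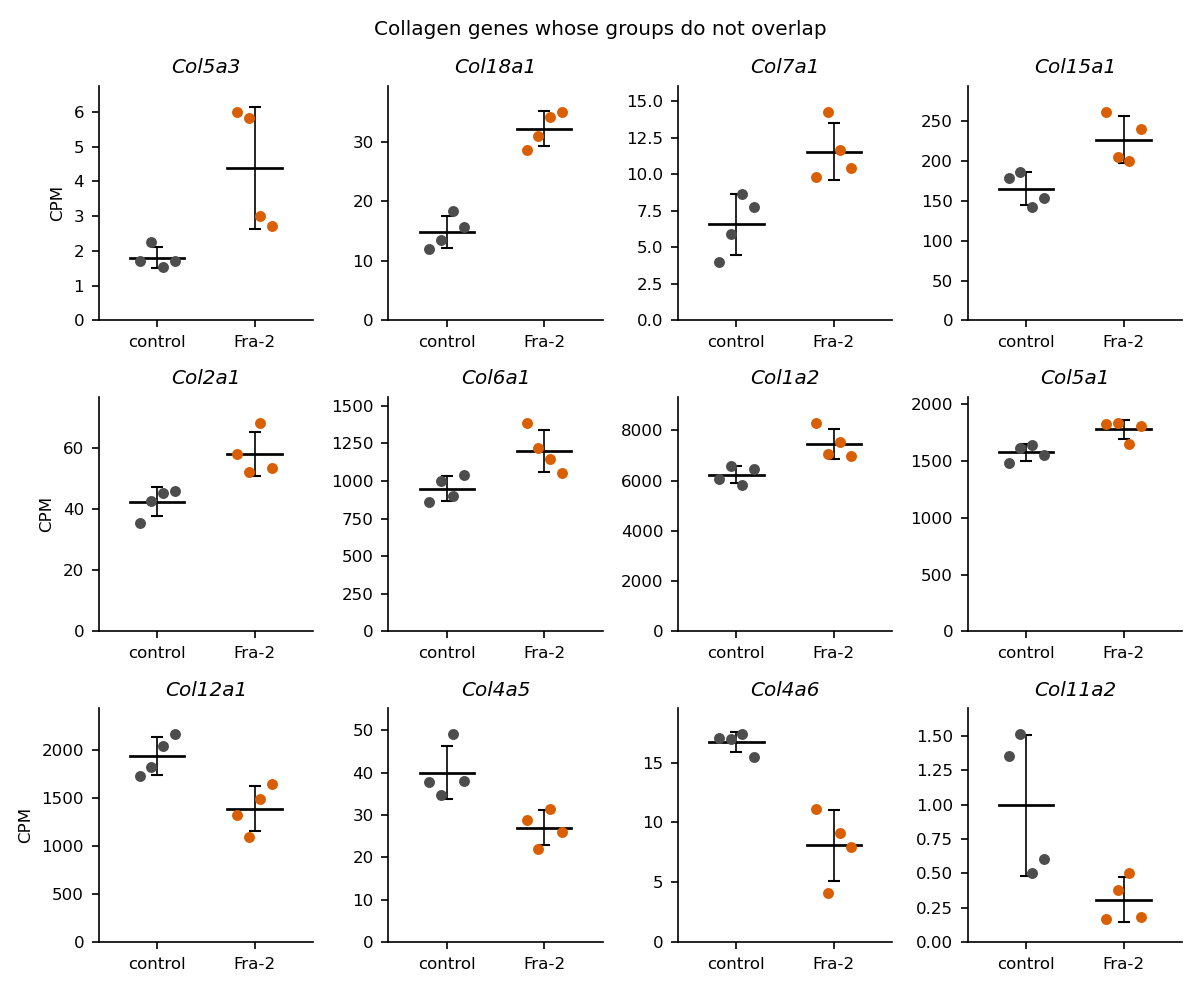
CPM on linear axes from 0 of the 12 collagen genes in which all libraries of one group lie above all of the other, sorted by fold change, with 1 point per library, a line at the group mean and bars of 1 SD (n = 4). Col18a1 and Col4a6 are the 2 that passed in edgeR, and in Col5a1, Col6a1 and Col11a2 the nearest libraries of the 2 groups almost touch.

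Chains that share a trimer or a fibril were compared as ratios of their CPM within each library, with 0.5 CPM added to each gene. A plain ratio does not depend on library size, but with the added 0.5 CPM the ratio of low genes does. Lengths were not taken into account, so only differences between libraries can be read. The ratio of Col1a1 to Col1a2 was 0.858, 1.04, 1.04 and 0.952 in control 1 to 4 and 0.797, 0.834, 0.767 and 0.735 in Fra-2 1 to 4. All Fra-2-labelled libraries were below all controls, and the mean log2 ratio differed by -0.31 (exact two-sided permutation p = 0.0286, Benjamini-Hochberg adjusted p = 0.114 over 8 ratios). The value 0.0286 is the smallest that 4 against 4 libraries allow. An adjusted p under 0.05 would need most of the 8 ratios at that value together. Failure to pass after adjustment was thus nearly fixed in advance and says little about a single ratio. The ratio of Col8a1 to Col8a2 was 5.21 to 6.86 in the controls and 7.70 to 15.4 in the Fra-2-labelled libraries, also without overlap (difference 0.77 on the log2 scale, exact permutation p = 0.0286, adjusted p = 0.114). It rests on a denominator of 17 to 45 counts per library and on the 0.5 CPM added to each gene. Without that addition the groups overlapped, with control 4 at 10.9 and Fra-2 1 at 10.4 (difference 0.93, exact permutation p = 0.0571, adjusted p = 0.152). Col4a5 to Col4a6 was 2.19, 2.02, 2.77 and 2.42 in the controls and 2.53, 4.86, 3.31 and 3.13 in the Fra-2-labelled libraries. The groups overlapped through Fra-2 1 and control 3 alone (exact permutation p = 0.0571, adjusted p = 0.152). So few libraries do not decide whether the fold change of Col4a6 differs from that of Col4a5.

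The other 5 ratios overlapped between the groups. The ratio of collagen III to collagen I, Col3a1 to Col1a1, was 1.10 ± 0.204 in the controls and 1.22 ± 0.114 in the Fra-2-labelled libraries (exact permutation p = 0.314). Col6a3 to Col6a1 was 2.28 ± 0.239 and 1.99 ± 0.210 (exact permutation p = 0.114). Col4a1 to Col4a2 stayed near 1, at 1.01 ± 0.106 and 0.979 ± 0.0716. Col5a1 to Col5a2 was 3.18 ± 0.332 and 3.34 ± 0.407, and Col6a1 to Col6a2 was 0.644 ± 0.0458 and 0.680 ± 0.0399.

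**Figure D5:**
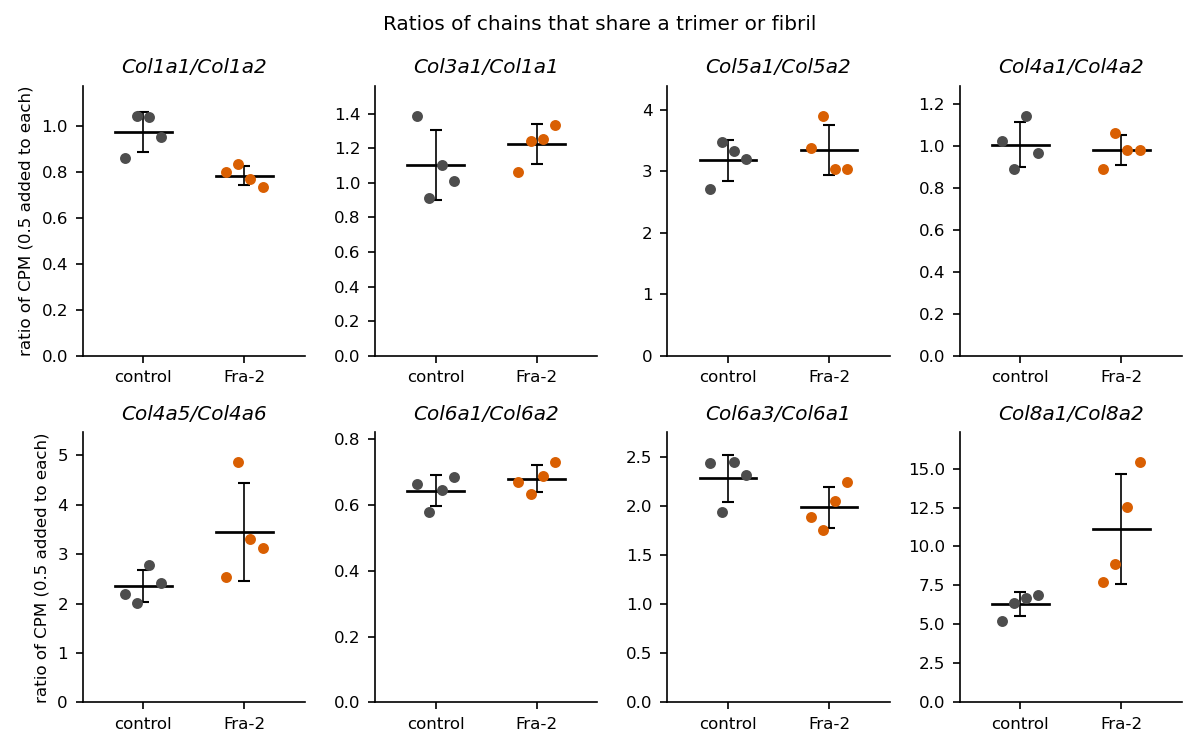
Ratio of the CPM of 2 chains within a library (0.5 CPM added to each) for 8 pairs that share a trimer or a fibril, on linear axes from 0, with 1 point per library, a line at the mean and bars of 1 SD (n = 4). The groups do not overlap for Col1a1/Col1a2 and Col8a1/Col8a2 and overlap for the other 6. The separation of Col8a1/Col8a2 is lost without the added 0.5 CPM. None passed after adjustment over the 8 pairs, which so few libraries hardly allow.

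Several collagen genes are neighbours in the genome, and their log2 fold changes are given side by side. Head to head lie Col4a1 and Col4a2, whose annotated starts overlap on chromosome 8 (0.10 and 0.14), Col4a4 and Col4a3, 72 bases apart on chromosome 1 (0.02 and 0.15), and Col4a6 and Col4a5 (-1.05 and -0.56). Col3a1 and Col5a2 lie tail to tail on chromosome 1 (0.11 and 0.11). Col6a2 and Col6a1 follow each other on chromosome 10 (0.26 and 0.34). These pairs also share a trimer or fibril. Col6a6, Col6a5 and Col6a4, the alternative long chains, follow each other on chromosome 9 (0.19, 0.51 and 0.26). Col9a1 and Col19a1 lie tail to tail on chromosome 1 and had too few counts to be tested. Similarity of neighbours beyond other gene pairs was not tested. Neighbouring and overlapping genes shared at most 6.07% of a collagen gene's exon bases, the highest being Col9a3, and as no step that marks the strand is named in the protocols, counts there cannot be assigned to one gene.

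Genes that make, process or bind collagen were read from 5 lists. Over all tested genes 0.72% passed upwards and 0.298% downwards in edgeR. Among 21 tested genes of synthesis and folding 1 rose, 0 fell and 20 did not pass in edgeR. The riser was Creb3l1, a transcription factor of the secretory pathway that acts on collagen genes, at 93.7, 116, 114 and 112 CPM in the controls and 249, 213, 216 and 230 CPM in the Fra-2-labelled libraries (log2 fold change 1.06, SE 0.102, edgeR adjusted p = 0.00014). Among 12 tested genes of propeptide removal and cross-linking 1 rose, Pcolce2, an enhancer of the enzyme that removes the C-propeptide (70.7 ± 7.33 and 98.3 ± 6.32 CPM, edgeR adjusted p = 0.0459), and 0 fell. Of 10 tested receptor genes 0 rose and 0 fell, with Itgb1, the common integrin beta chain, at 1938 ± 116 and 1972 ± 148 CPM. Of 9 tested genes of breakdown 1 rose, the metalloproteinase Mmp19 (10.9 ± 3.14 and 32.8 ± 4.02 CPM, edgeR adjusted p = 0.000615), and 0 fell. Of 13 tested partners of fibrils 2 rose and 0 fell. They were the proteoglycan Dcn (140 ± 17.7 and 212 ± 30.2 CPM, edgeR adjusted p = 0.0323) and Dpt, dermatopontin (361 ± 54.5 and 536 ± 69.7 CPM, edgeR adjusted p = 0.0490). The median log2 fold changes of the 5 lists were 0.12, 0.29, 0.07, 0.07 and 0.24 in that order, against -0.0123 for all tested genes. Because the lists were chosen with earlier results of these data known, their counts and medians were not tested against those of all genes.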

How the data were processed

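The authors deposited 1 table of raw read counts per mouse Ensembl gene for 8 libraries, made per the labels' protocols from mRNA of 50 ng total RNA by cDNA amplification and Nextera XT. The submitters' processing notes name GRCh38, which is human, although the gene identifiers are of mouse. No aligner or counter was stated. Groups come from the labels. Symbols, lengths and positions were taken from GENCODE M21 (GRCm38), and 0.0842% of counts lay on identifiers without a symbol.

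Genes were tested over the whole table with edgeR 4.0.16 (filterByExpr with minimum count 10 and minimum total 15, TMM scaling, robust quasi-likelihood test, Benjamini-Hochberg adjustment, threshold 0.05), with DESeq2 1.42.0 and limma 3.58.1 as alternatives. The procedure was tested on simulated data. Pair ratios had 0.5 CPM added and an exact permutation test. Values in every library were given for called genes, the 2 highest per length and the smallest adjusted p of each class, and the chains of the ratios. Members and lists were chosen with earlier results of these data known. Library sex was read from Xist and 4 Y-linked genes.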

Additional observations from a re-analysis of the deposited data

Results flagged for a closer look

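In 3 of 98 groups of 4 libraries looked at, 1 library stood apart from the other three by Dixon's criterion, where chance gives about 4.9. Col17a1 was at 2.26 CPM in Fra-2 2 and at 0.981 to 1.13 CPM in the other Fra-2-labelled libraries. Col24a1 was at 51.0 CPM in Fra-2 4 and at 59.3 to 60.3 CPM in the others. Col5a1 was at 1654.5 CPM in Fra-2 3 and at 1806 to 1835 CPM in the others.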

How the results depend on the processing

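Col18a1 was called under all 20 alternatives and Fosl2 under none. The count of collagen genes called higher, 1, became 2 with no filter on low counts, 2 at an adjusted p of 0.10 and 6 with DESeq2, and was 1 to 1 with a library left out. The count called lower, 1, became 2 with total-count scaling, 3 with no filter, 0 without robust dispersion (Col4a6, edgeR adjusted p = 0.0580) and 3 with DESeq2, and ranged from 0 to 1 with a library left out. With the replicate number as a block it was 3 (Col4a5, Col4a6 and Col12a1), and over all genes 137 were called higher and 53 lower against 111 and 46. Deviations of libraries with the same number correlated at 0.00177, 0.219, 0.0797 and 0.310. Controls 2, 3 and 4 each correlated best with the Fra-2-labelled library of their own number, while control 1 correlated best with Fra-2 2 (0.198). The protocols do not say that the numbers pair libraries, and these values do not settle it. The main fit does not pair them. Over all genes DESeq2 called 272 higher and 97 lower, and leaving out a library gave 50 to 153 higher and 22 to 52 lower. The log2 fold change of Col26a1 turned to 0.048 in limma-voom and ran from -0.81 to 0.21 with a library left out, and that of Col1a1 from -0.11 to 0.021. The log2 difference of Col5a1/Col5a2 ran from -0.0080 to 0.11 and that of Col4a1/Col4a2 from -0.093 to 0.027. No ratio passed after adjustment under any alternative, which so few libraries hardly allow. Without the added 0.5 CPM the log2 difference of Col8a1/Col8a2 was 0.93 and its groups overlapped (exact permutation p = 0.0571). The cause of these shifts was not tested. Depth limits the genes under 1 CPM.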
